A study of Mus musculus with 3 samples.

Results

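Agt, Ace, Enpep, Agtr1a and Agtr2, 5 genes of the angiotensin system, were followed across the cells of injured and uninjured mouse sciatic nerve. They are 5 of the 21438 genes with a row in at least 1 of the 4 deposited count tables, and each of the 5 has a row in all 4 tables. They were chosen by name, and selected on their CPM and their share of expressing cells in these same tables, so those levels are given as a description. Agtr2 was nearly absent from uninjured mesenchymal cells and present in injured ones, and in the injured beads library most of its transcripts lay in cells named differentiating-like from their markers. In the injured FACS library most of the Agtr2 transcripts of mesenchymal-like cells lay in clusters that stayed unnamed. Ace was lower in the injured mesenchymal pool as a whole, while Enpep was higher in 1 mesenchymal subclass. Agt and Agtr1a were highest in mural cell-like cells of the injured beads library, and the FACS library had no such class.

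The angiotensin system is a peptide cascade best known for control of blood pressure. Agt encodes angiotensinogen, the precursor that renin cleaves to angiotensin I. Ace encodes angiotensin-converting enzyme, which trims angiotensin I to angiotensin II and also degrades bradykinin. Enpep encodes aminopeptidase A, which shortens angiotensin II to angiotensin III. Agtr1a encodes the type 1a receptor, through which angiotensin II contracts vessels and promotes matrix deposition, and Agtr2 the type 2 receptor, which is abundant in fetal mesenchyme and low in most adult tissues.

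The data are Drop-seq counts, in which droplets tag RNA with a barcode for the cell and a molecular identifier (UMI) for each molecule. The injured beads library came from the distal nerve of adult wild-type CD1 mice 9 days after resection, with myelin removed on beads. The injured FACS library came from the same segment and day in adult CD1 and C57BL/6 mice, sorted through a gate on which the sources used here are silent. The uninjured library came from whole sciatic nerve of adult wild-type CD1 mice, also with beads, and holds only the cells that the authors predicted to be mesenchymal. All nerves were digested with collagenase and trypsin, and neither the number of mice per library nor dates or batches are stated. Library and group cannot be told apart. Each group is 1 library, so no difference has a replicate check, no test was made, and intervals in brackets are 95% intervals for counting error only.

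The injured beads library held 4300 barcodes (10859939 UMIs) and the injured FACS library 2000 barcodes (7122377 UMIs). The authors' mesenchymal tables held 1289 injured cells (4746263 UMIs, median 2798 per cell) and 880 uninjured cells (2169121 UMIs, median 2102.5). All 1289 injured mesenchymal barcodes are also in the injured beads table, so values from those tables are not independent. The 2 injured libraries share 1 barcode and neither shares any with the uninjured library. The 12 mesenchymal markers, Pdgfra and collagen genes among them, were all detected in both mesenchymal tables. Levels are given as CPM, the UMIs of a gene over all UMIs of the pooled cells, scaled to a total of 1000000.

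In the GENCODE annotation of GRCm38, all 5 genes are protein coding. Agt lies at chr8:124556534-124569706 on the minus strand with 5 exonic blocks, and no other gene overlaps it. Ace lies at chr11:105967945-105989964 on the plus strand with 25 exonic blocks, and the antisense gene Gm11651 overlaps it. Enpep lies at chr3:129269175-129332720 on the minus strand with 19 exonic blocks and contains the processed pseudogene Gm42628 on the other strand. Agtr1a lies at chr13:30336441-30382867 on the plus strand and contains the sense-intronic gene Gm48161. Agtr2 lies at chrX:21484544-21489164 on the plus strand with 4 exonic blocks and no overlapping gene. Whether reads were assigned by strand is not stated. For Ace, Enpep and Agtr1a, reads of the overlapping gene could therefore be included.

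Promoters are shown for the 2 genes whose pooled mesenchymal level differed most between injured and uninjured nerve. The RefSeq table (GRCm38.p6) has entries for 4 of the 5 genes, each running from 250 bases before the transcription start to 50 bases after it. They were searched on both strands for TATANA, where N is any base. Capitals mark a match on the gene's own strand that begins 20 to 40 bases before the start. The Agtr2 window is chrX:21484374-21484673 on the plus strand, and the Ace window is that of the upstream start, chr11:105967698-105967997 on the plus strand. Both are written in the direction of transcription.
Agtr2: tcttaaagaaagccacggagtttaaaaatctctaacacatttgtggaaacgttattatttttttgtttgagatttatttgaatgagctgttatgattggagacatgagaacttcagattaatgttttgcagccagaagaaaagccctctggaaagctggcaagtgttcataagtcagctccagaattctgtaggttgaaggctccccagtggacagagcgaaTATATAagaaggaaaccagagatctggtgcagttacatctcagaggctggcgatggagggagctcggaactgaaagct
Ace: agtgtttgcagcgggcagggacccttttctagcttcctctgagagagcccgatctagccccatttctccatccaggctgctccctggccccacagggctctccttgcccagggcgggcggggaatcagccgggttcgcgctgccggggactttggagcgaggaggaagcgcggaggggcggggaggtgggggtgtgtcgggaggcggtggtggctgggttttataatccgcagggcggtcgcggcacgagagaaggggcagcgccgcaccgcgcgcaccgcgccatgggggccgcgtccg
The Agtr2 window has 1 match, which begins 28 bases before the start and, being TATATA, reads the same on the other strand. The Ace window has no match on its own strand and 1 on the other. Of 32851 promoter windows, 3.11% hold such a match at that distance and 24.7% hold TATANA anywhere on either strand. The Agtr2 window is 41.3% G or C and the Ace window 69.7%. Agt also has 1 match, 30 bases before its start, and Enpep has none at that distance. A match describes the letters only.

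Injured and uninjured nerve were compared between the mesenchymal tables of the beads libraries, and mesenchymal-like cells of the FACS library were set against the same uninjured table. A gene was counted as higher or lower if it reached 50 CPM in 1 pool or both and its ratio was 2-fold or more with an interval clear of 1. By that rule Agtr2 was higher and Ace lower, Agtr1a passed the level but not the fold, and Agt and Enpep had less than 50 CPM in both pools. Over all 3964 genes at that level, 8.17% were higher and 7.14% lower. With DESeq2 size factors these shares were 6.74% and 8.6%. At a floor of 10 CPM they were 10.1% and 6.9%, and 8.13% and 8.32% with that floor and DESeq2 size factors together. The median log2 ratio of the 3 genes that reached 50 CPM was -0.82, beside 0.20 over all genes at that level. Since the genes were chosen with this contrast known, nothing is read from those counts.

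Agtr2 was at 1.84 CPM (0.502 to 4.72, 4 UMIs) in uninjured cells and at 84.3 CPM (76.2 to 93.0, 400 UMIs) in injured cells. The FACS library's mesenchymal-like cells, the 650 cells of clusters named from the marker list, stood at 99.7 CPM (90.5 to 110). Both injured libraries were thus far above the uninjured one, and the intervals did not meet. The log2 ratio was 5.51 (4.15 to 7.40) with the beads library and 5.76 (4.39 to 7.64) with the FACS library, both against the same 880 uninjured cells. With the 3 subclasses found in both beads libraries given the same weight, which leaves out the differentiating-like cells, it was 3.49. An Agtr2 UMI was found in 134 of 1289 injured cells (10.4%, 8.78 to 12.2) and in 3 of 880 uninjured cells (0.341%, 0.0704 to 0.993). In Schwann cell-like cells of the injured beads library, a class that serves as background, the share was 0.197% at a median of 2280.5 UMIs, beside 2798 in the injured and 2102.5 in the uninjured mesenchymal cells. The uninjured share is close to that background. With each cell thinned to 1000 UMIs, which left out 315 injured and 119 uninjured cells, the shares were 5.75% and 0.131%.

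Markers of other cell types differed between the mesenchymal pools. The red blood cell list summed to 1612 CPM in uninjured and 112 CPM in injured cells, the Schwann cell list to 774 and 236 CPM, the pericyte list to 396 and 280 CPM and the macrophage list to 20.7 and 299 CPM. Without the cells that held at least 2 markers of 1 other cell type (509 of 880 and 561 of 1289 cells) the Agtr2 log2 ratio was 4.45.

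Ace was at 290 CPM (268 to 314) in uninjured cells, 90.0 CPM (81.6 to 98.9) in injured cells and 82.0 CPM (73.7 to 91.0) in the FACS mesenchymal-like cells. Here the uninjured library was the high one, with a log2 ratio of -1.69 (-1.87 to -1.51). A UMI was seen in 357 of 880 uninjured cells (40.6%) and in 272 of 1289 injured cells (21.1%), against 1.77% of Schwann cell-like cells. The thinned shares were 22.9% and 10.2%. Endothelial cells also carry Ace, and the 12 endothelial markers, all detected in both tables, summed to 309 CPM in the uninjured and 218 CPM in the injured pool. Without the same cells holding markers of another type, the Ace log2 ratio was -1.54, that of Agtr1a -0.80, that of Agt -0.93 and that of Enpep 0.18.

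Agtr1a was at 57.2 CPM (47.5 to 68.2) in uninjured, 32.4 CPM (27.5 to 38.0) in injured and 24.2 CPM (19.8 to 29.4) in FACS cells. Its log2 ratio was -0.82 (-1.17 to -0.46) with the beads library, under the 2-fold rule, and -1.24 (-1.63 to -0.85) with the FACS library, past it. In that second comparison 10.9% of 3941 genes were higher and 8.35% lower. A UMI was found in 11.7% of uninjured and 9.39% of injured cells. Agtr1b, the other mouse gene for a type 1 receptor, had 3 UMIs in uninjured and 1 in injured cells, too few for a fold.

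Enpep was at 32.7 CPM (25.6 to 41.3) in uninjured, 41.9 CPM (36.3 to 48.2) in injured and 53.4 CPM (46.7 to 60.7) in FACS cells. The log2 ratio of 0.36 had an interval from -0.041 to 0.77, so a difference between the beads libraries was not detectable at this depth. With the FACS library the Enpep log2 ratio was 0.70 (0.31 to 1.11), clear of 0 but under the 2-fold rule. Agt, the precursor, was scarce in every mesenchymal pool, at 16.6 CPM (11.6 to 23.0) in uninjured, 9.69 CPM (7.10 to 12.9) in injured and 11.4 CPM (8.45 to 15.1) in FACS cells. One uninjured cell held 11 of the 36 uninjured Agt UMIs. The Agt log2 ratio was -0.78 (-1.44 to -0.11), and -0.38 without the cell richest in Agt in each pool. It was -0.093 with cells thinned to 1000 UMIs.

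**Figure D1:**
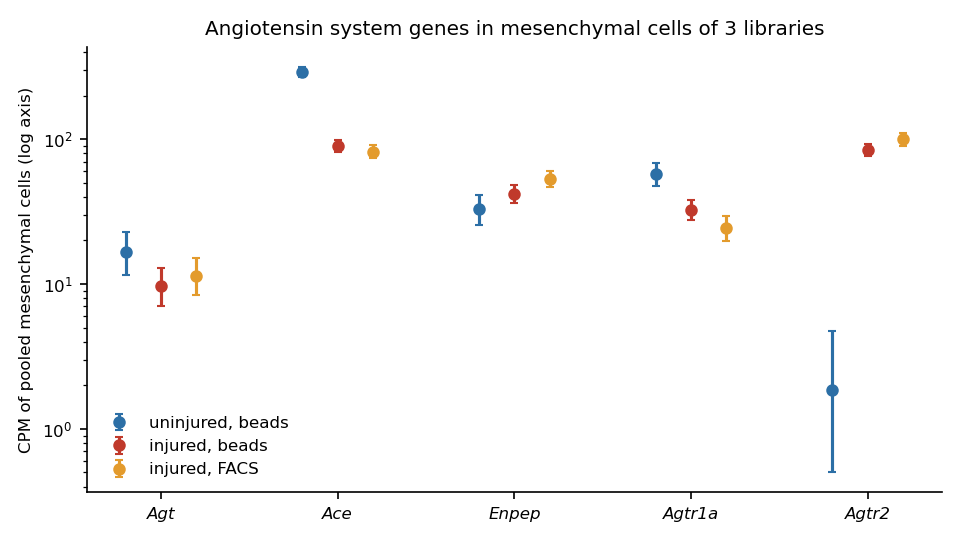
Pooled CPM (log axis) of the 5 genes in uninjured mesenchymal cells and in mesenchymal cells of the 2 injured libraries, with bars for the 95% Poisson interval. Agtr2 lies at 1.84 CPM in the uninjured and at 84.3 and 99.7 CPM in the injured libraries, while Ace lies at 290 CPM against 90.0 and 82.0.

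Which cells of the injured nerve carried the genes was read from classes named with marker lists, each called "-like". The classes were named from clusters made without the angiotensin and kinin genes. The receptor Agtr2 was concentrated in mesenchymal-like cells of both libraries, at 81.7 CPM in the beads library and 99.7 CPM in the FACS library. Elsewhere in the beads library its named classes lay between 0 and 5.69 CPM, the highest being mural cell-like cells with 3 UMIs. In the FACS library endothelial cell-like cells stood at 6.44 CPM and mononuclear phagocyte-like cells at 5.54 CPM. Cells of unnamed clusters in the beads library, at a median of 486 UMIs, had 96.3 CPM, and 1 cell held 15 of their 30 UMIs. In the FACS library the cells that no class took held 28 Agtr2 UMIs, 5.98% of its total, in 22 of 352 cells.

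Agt and Agtr1a shared their highest class in the beads library, mural cell-like cells, a cluster led by pericyte markers of the vessel wall. Agt stood there at 74.0 CPM (52.6 to 101), with a UMI in 30 of 241 cells (12.4%), against 9.83 CPM in mesenchymal-like cells. Schwann cell-like cells had none in 508 cells, which allows a share of cells with a UMI of up to 0.591%, taking 3 counts as the limit for a count of 0. Agtr1a stood at 79.7 CPM (57.4 to 108) in mural cell-like cells, seen in 34 cells (14.1%), and at 33.2 CPM (28.1 to 38.9) in mesenchymal-like cells. The separate smooth muscle cell-like class of 51 cells had no UMI of either gene, which allows a share of up to 5.88% by the same limit. So both transcripts were found in the pericyte-rich class. The limit for the contractile class lies below the mural intervals, 8.56 to 17.3% for Agt and 9.97 to 19.2% for Agtr1a. A share under that limit could not be seen in so few cells, and the difference between the classes was not tested. The FACS library had no mural class. Its endothelial cell-like class, in which the 10 pericyte markers summed to 3081 CPM beside 263 CPM in that of the beads library, had 35.4 CPM of Agt (17.7 to 63.4), and 3.65 CPM at the finer clustering resolution of 1.6.

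Ace, an enzyme of the vessel lining, was highest among the broad classes in endothelial cell-like cells, at 155 CPM (138 to 173) in the beads and 106 CPM (73.1 to 149) in the FACS library. A UMI was seen in 167 of 572 (29.2%) and 21 of 86 (24.4%) of these cells. The epineurial-like subclass described further on stood higher than the endothelial cells. Mesenchymal-like cells as a whole came next, at 91.3 and 82.0 CPM, and the 2 classes of the FACS library did not differ beyond their intervals. Schwann cell-like cells (6.36 CPM), mural cell-like cells (15.2 CPM) and mononuclear phagocyte-like cells (10.5 CPM) were low in the beads library.

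Enpep, an enzyme on the surface of perivascular cells in many tissues, was at 67.4 CPM (30.8 to 128) in smooth muscle cell-like, 41.7 CPM (26.2 to 63.2) in mural cell-like and 41.5 CPM (35.8 to 47.8) in mesenchymal-like cells of the beads library. These 3 neighbours overlap in their intervals. Endothelial cell-like cells had 2.94 CPM, Schwann cell-like cells 0.706 CPM, and mononuclear phagocyte-like cells none in 509 cells. In the FACS library mesenchymal-like cells had 53.4 CPM and mononuclear phagocyte-like cells 1.11 CPM.

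**Figure D2:**
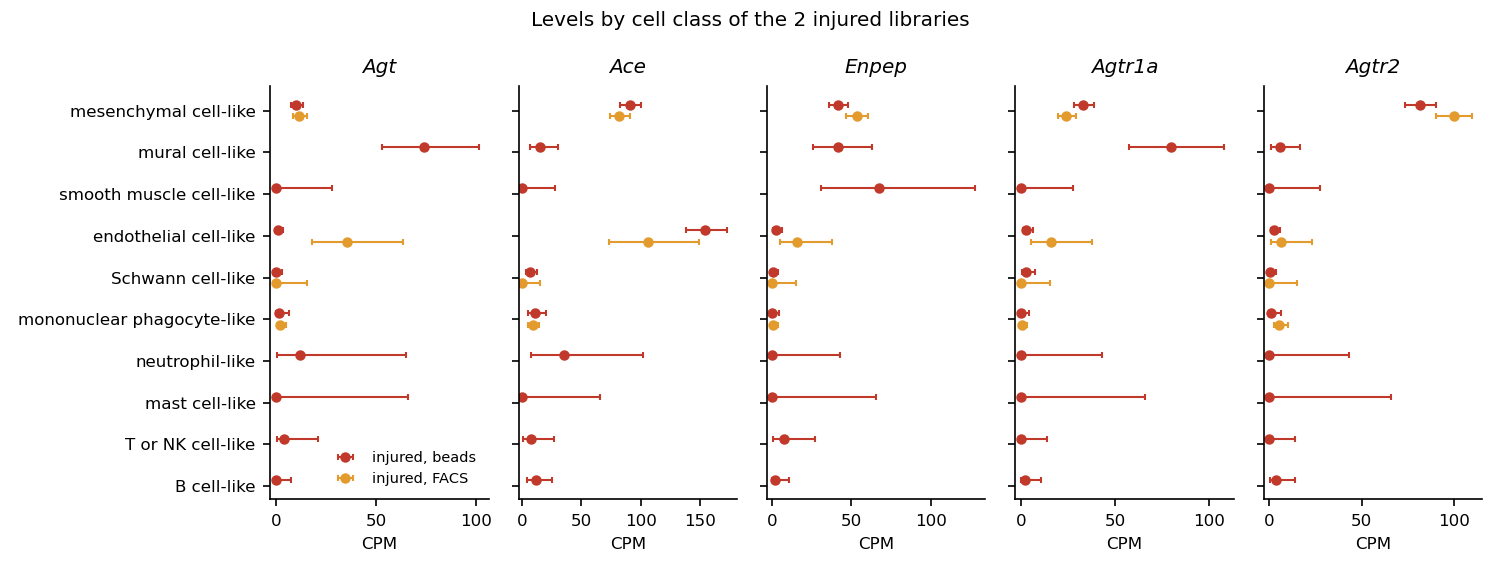
Pooled CPM of each gene (x axis, a scale for each gene) in the named cell classes with at least 30 cells of the injured beads and FACS libraries, with 95% Poisson intervals. Agtr2 stands out in mesenchymal cell-like cells, Agt and Agtr1a in mural cell-like cells and Ace in endothelial cell-like cells.

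The mesenchymal cells were divided into endoneurial-like, epineurial-like, perineurial-like and differentiating-like cells. Nerve mesenchyme lies in layers, the endoneurium around the fibres, the perineurium around each bundle and the epineurium outside. The beads tables were clustered together and the FACS cells apart. In the beads tables the differentiating-like class held 409 injured cells and 1 uninjured cell. Endoneurial-like cells came from 1 cluster in the uninjured library (426 cells) and from another in the injured one (245 of 246 cells). Sfrp5, listed as an endoneurial marker, led the perineurial-like cluster. Of the injured cells, 369 stayed unnamed, with a median of 616 UMIs.

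Agtr2 was highest in differentiating-like cells of the beads library, at 163 CPM (146 to 181), with a UMI in 102 of 409 cells (24.9%). Those cells are 31.7% of the injured mesenchymal table and held 87.0% of its Agtr2 UMIs. Epineurial-like cells had 47.8 CPM (28.8 to 74.6) after injury and 4.41 CPM (1.20 to 11.3, 4 UMIs) without it, and all 4 uninjured Agtr2 UMIs lay in that class. Endoneurial-like cells had 1.83 CPM, or 3 UMIs in 246 cells, after injury and none in 426 uninjured cells, which allows a share of up to 0.704% by the same limit. Perineurial-like cells had no UMI in either beads library. The type 2 receptor transcript was thus spread unevenly over injured mesenchyme, with the endoneurial-like cells, the deepest at a median of 6304 UMIs, among the lowest.

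In the FACS library differentiating-like cells held 86 of the 428 Agtr2 UMIs of mesenchymal-like cells, and cells of unnamed clusters 291. Agtr2 stood at 79.8 CPM (63.9 to 98.6) in differentiating-like, 50.1 CPM (33.8 to 71.5) in epineurial-like, 23.4 CPM in perineurial-like and 17.3 CPM (9.66 to 28.5) in endoneurial-like cells. The highest levels were in 2 clusters that stayed unnamed, with 244 CPM (93 cells) and 224 CPM (88 cells). The second of them was led by genes that include Egfl6, Tnmd, Hp and Dlk1.

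Ace was highest in epineurial-like cells of all 3 libraries, at 417 CPM (376 to 462) in uninjured, 375 CPM (317 to 440) in injured beads and 314 CPM (271 to 362) in injured FACS cells. The epineurial-like log2 ratio was -0.16 (-0.44 to 0.12) with the beads and -0.41 (-0.67 to -0.16) with the FACS library. Endoneurial-like cells were at 220 CPM (193 to 249) uninjured, 79.8 CPM (66.7 to 94.7) in the beads and 47.2 CPM (33.8 to 64.0) in the FACS library. There the log2 ratio was -1.46 (-1.78 to -1.15) with the beads and -2.22 (-2.73 to -1.74) with the FACS library. By the size rule Ace was lower in endoneurial-like cells with both injured libraries and in epineurial-like cells with neither. The difference between these ratios was not tested. Differentiating-like cells, nearly all of them injured, had 57.5 CPM (47.7 to 68.6). With the 3 subclasses found in both libraries given the same weight, the Ace log2 ratio was -0.55.

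Enpep was at 20.7 CPM (13.1 to 31.1) in uninjured endoneurial-like cells and at 60.3 CPM (49.0 to 73.4) in injured ones, a log2 ratio of 1.54 (0.88 to 2.27). The FACS endoneurial-like cells were at 56.4 CPM (41.7 to 74.5), a log2 ratio of 1.45 (0.70 to 2.23). Among the 5 genes in endoneurial-like cells of the beads libraries, Enpep was thus higher and Ace lower by the size rule, where 10.8% of 3719 genes were higher and 9.38% lower. The FACS library gave the same 2 calls, against 12.9% higher and 10.5% lower. In epineurial-like cells Enpep was at 46.3 CPM uninjured, 52.8 CPM in the beads and 15.03 CPM in the FACS library. In the epineurial-like cells of the beads libraries none of the 5 genes passed the rule, where 4.32% of genes were higher and 2.06% lower, and with the FACS library Agtr2 alone did, where 4.46% were higher and 3.97% lower. Agtr2 missed the rule in the beads cells by its level alone, at 47.8 CPM against 50.1 CPM in the FACS cells, with log2 ratios of 3.44 (1.85 to 5.45) and 3.51 (2.00 to 5.47).

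Agtr1a was highest in endoneurial-like cells of the beads libraries, at 71.1 CPM (56.3 to 88.6) uninjured and 48.1 CPM (38.1 to 60.0) injured, a log2 ratio of -0.56 (-1.03 to -0.09). Epineurial-like cells were at 44.1 and 37.7 CPM (40 and 15 UMIs), with overlapping intervals. In the FACS library endoneurial-like cells did not lead, at 40.3 CPM (35 UMIs) beside 41.7 CPM (25 UMIs) in epineurial-like cells. Differentiating-like cells were lower, at 20.6 CPM (14.9 to 27.6) in the beads and 2.78 CPM (0.574 to 8.14) in the FACS library. The 2 receptors thus had different highest subclasses in the injured beads library, the type 1a receptor endoneurial-like cells and the type 2 receptor differentiating-like cells.

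Agt reached 29.7 CPM (19.6 to 43.3) in uninjured and 37.7 CPM (21.1 to 62.2) in injured epineurial-like cells of the beads libraries, with 27 and 15 UMIs. Endoneurial-like cells were at 8.10 CPM (3.70 to 15.4) uninjured, 15.2 CPM (9.86 to 22.5) in the beads and 34.5 CPM (23.3 to 49.3) in the FACS library. Agt was scarce in differentiating-like cells of both injured libraries, with 5 and 3 UMIs, and absent from perineurial-like cells of the beads libraries. Within endoneurial-like and epineurial-like cells the Agt log2 ratios of the beads libraries were 0.91 (-0.24 to 2.20) and 0.34 (-0.67 to 1.30). They lie on the other side of 0 from the pooled ratio of -0.78. With 3 subclasses at the same weight the ratio was 0.48.

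**Figure D3:**
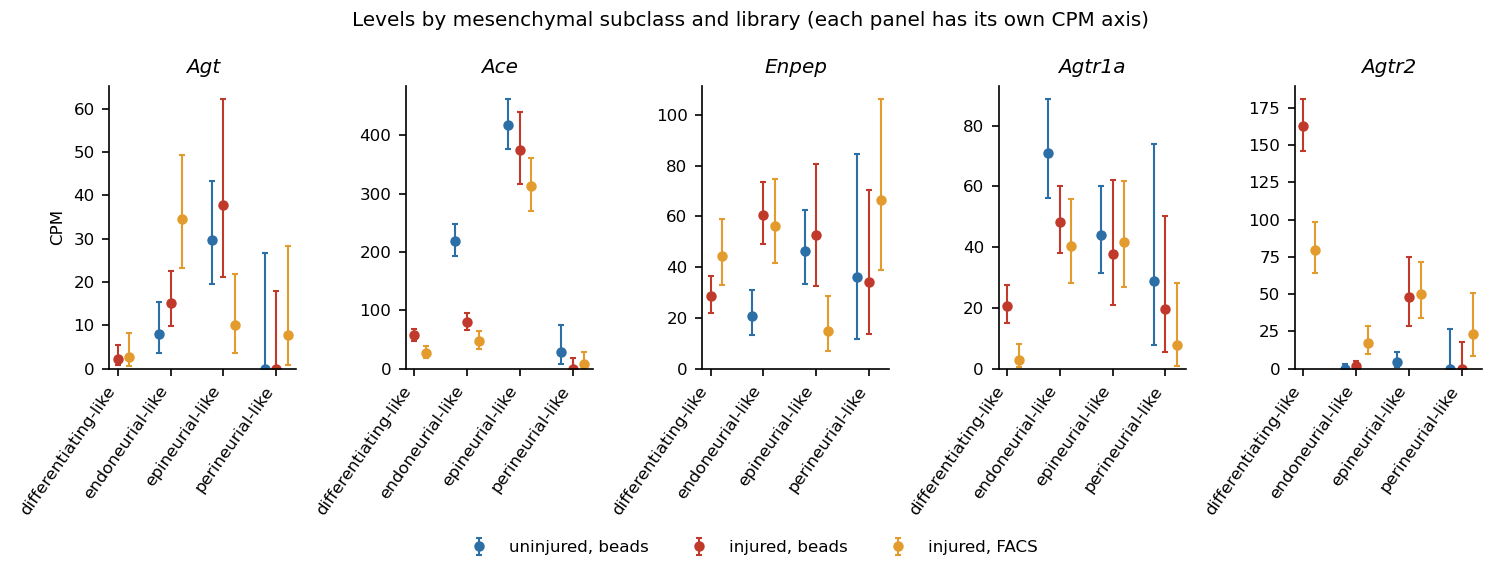
Pooled CPM of each gene (own y axis per panel) in mesenchymal subclasses with at least 30 cells of the uninjured, injured beads and injured FACS libraries, with 95% Poisson intervals. Ace in epineurial-like cells lies between 314 and 417 CPM, lowest in the FACS library, and in endoneurial-like cells at 220 CPM uninjured against 79.8 and 47.2 CPM injured, and Agtr2 reaches 163 CPM in differentiating-like cells.

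**Figure D4:**
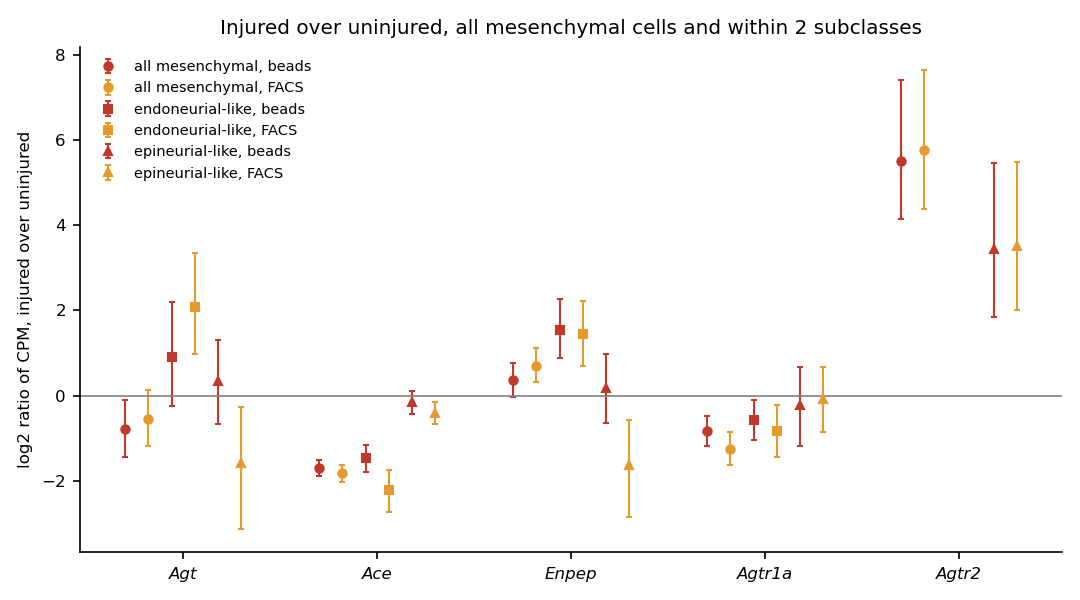
Log2 ratio of CPM, injured over uninjured, for all mesenchymal cells (circles), endoneurial-like (squares) and epineurial-like cells (triangles), with beads cells in red and FACS cells in orange, both against the same uninjured cells. Bars are 95% conditional binomial intervals, the line marks 0, and Agtr2 has no endoneurial-like point since the uninjured cells had 0 UMIs.

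Agtr2 was unevenly spread also from cell to cell. Of the 134 injured beads cells with an Agtr2 UMI, 54 had 1 UMI, 57 had 2 to 4, and 23 had 5 or more. Those 23 cells held 49.2% of the Agtr2 UMIs, and the richest cell held 26. In the FACS library 26 of 116 cells had 5 or more and held 60.3% of the UMIs, with 35 in the richest cell. The other genes were thinner per cell. Among the injured beads cells, 5 of 272 Ace cells, 2 of 126 Enpep cells, 1 of 121 Agtr1a cells and none of 36 Agt cells had 5 UMIs or more.

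**Figure D5:**
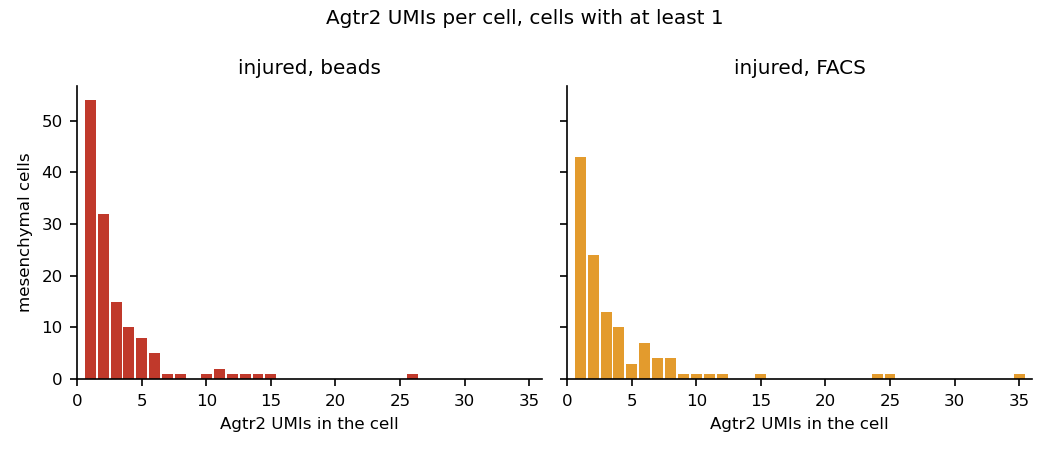
Number of mesenchymal cells (y axis) by Agtr2 UMIs in the cell (x axis), for cells with at least 1, in the injured beads table and in the mesenchymal cell-like cells of the injured FACS library. Most cells have few UMIs, with a tail up to 26 in the beads and 35 in the FACS library.

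Few cells held UMIs of both receptors. Of the injured mesenchymal cells, 21 did, 17.4% of the 121 Agtr1a cells and 15.7% of the 134 Agtr2 cells. Over all 1289 cells the shares were lower, 10.4% with Agtr2 and 9.39% with Agtr1a. In the FACS mesenchymal-like cells 7 cells did, 9.86% of the 71 Agtr1a cells and 6.03% of the 116 Agtr2 cells. There the shares over all 650 cells were higher, 17.8% with Agtr2 and 10.9% with Agtr1a. These differences were not tested. Ace was found beside Agtr1a in 45 injured cells (37.2% of the Agtr1a cells) and in 51 uninjured cells (49.5%). Agt and Agtr1a occurred together in 8 injured cells and 1 uninjured cell. These shares depend on depth, since a cell with few UMIs rarely shows 2 scarce transcripts.

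Beyond these 5 genes, 33 genes of the wider angiotensin, mineralocorticoid and kinin systems were looked up. Of them 32 had a row in the beads tables and 8 reached 50 CPM in a mesenchymal pool. By the size rule 2 were higher and none lower. Over all 3964 genes at that level 8.17% were higher and 7.14% lower, and nothing is read from a count of 2 among 8. The median log2 ratio of those 8 genes was 0.0019, beside 0.20 over all genes at that level. The 2 higher genes were Kng1 and Kng2, which encode kininogens, the precursors of bradykinin, a peptide that Ace degrades. Kng1 was at 0.922 CPM (2 UMIs) uninjured and 99.2 CPM injured, and Kng2 at 29.0 and 276 CPM. Mouse Kng1 and Kng2 are closely related genes, so some reads could have been split between them and each value is uncertain. Both lay mostly in injured endoneurial-like cells, at 260 CPM of Kng1 and 625 CPM of Kng2 in the beads library and at 254 and 696 CPM in the FACS library. Uninjured endoneurial-like cells had 0 and 2 UMIs. Kng1 was thus at least 96.4-fold higher in the beads cells, taking 3 UMIs as the floor for the uninjured pool. Kng1 is also among the leading genes of the injured endoneurial-like cluster, although it was left out of the clustering.

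At a floor of 10 CPM, 21 of the 33 genes could be compared, of which 2 were higher and 2 lower, Zbtb16 among the lower. Over all genes at that floor, 10.1% were higher and 6.9% lower, so a count of 2 among 21 is no result about the list. Zbtb16, a transcription factor that binds the type 2 receptor, was at 36.4 CPM uninjured and 3.58 CPM injured. In endoneurial-like cells it had 43 UMIs uninjured and 0 injured, at least 21.2-fold lower against a floor of 3 UMIs.

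Other enzymes that can form angiotensin peptides had their highest levels in other classes, although Ctsd, Ctsa and Atp6ap2 also passed 50 CPM in the mesenchymal pools. Mast cell-like cells of the injured beads library (36 cells) had 59115 CPM of Cma1 and 35116 CPM of Mcpt4, 2 mast cell chymases, and 49601 CPM of the carboxypeptidase gene Cpa3. These 3 genes are also on the list that named the class. The lysosomal protease genes Ctsd (6676 CPM) and Ctsa (972 CPM), and Atp6ap2 (288 CPM), the prorenin receptor gene, were highest in mononuclear phagocyte-like cells. Ctsg had 285 CPM in mast cell-like cells. Anpep, for aminopeptidase N, had 141 CPM and Rnpep 117 CPM in phagocyte-like cells. Prcp (191 CPM) and Mtus1 (151 CPM), whose product binds the type 2 receptor, were highest in endothelial cell-like cells. Agtrap, for a protein that binds the type 1 receptor, had 121 CPM in mural cell-like cells, Lnpep 97.0 CPM in B cell-like cells and Hsd11b1 94.0 CPM in T or NK cell-like cells. Ren1 had no UMI in the injured mesenchymal table and no row in the FACS and uninjured tables. Klkb1 had no row in any table, and Mas1 and Klk1 had none in the FACS table.

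The genes whose levels most resembled each member were ranked by Pearson correlation of log2(CPM + 10) over 13 pools of the injured beads library, among 8501 genes with at least 50 CPM in 1 pool. The pools share one library and differ in depth, so this is a description. Agt was nearest to Ggt5 (r = 0.92), Pla1a, Kcnj8, Abcc9 and Ankrd29, 4 of which were highest in mural cell-like cells. Ace was nearest to Ly6c1 (r = 0.89), Cd34, Tek, Slc43a3 and Lpar4. Enpep was nearest to Gm5077 (r = 0.95), C1qtnf2, Sobp, Hoxc10 and H6pd. Agtr1a was nearest to Mmp11 (r = 0.96), Fap, Cygb, Ccl11 and Nnmt. Agtr2 was nearest to Cilp (r = 0.95), a cartilage matrix protein gene on the list that named the differentiating-like cells, then Spon1, Prrx2, 3632451O06Rik and Mest.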

How the data were processed

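The authors deposited 4 tables of UMI counts per gene and cell, whole numbers that were not normalized. Build mm10 comes from the submitters' processing notes. Aligner, counting tool and the authors' mesenchymal rule are not stated. Barcodes of the injured tables with at least 200 genes were clustered without the angiotensin and kinin genes, with scanpy 1.11.5 and leidenalg 0.10.2 in Python 3.11.15 (2000 variable genes, 30 principal components, 15 neighbours, resolution 0.8). A cluster was called "-like" after the marker list with the highest mean enrichment, given a score of at least 1, a margin of 1 (subclasses 0.5), 3 markers in 5% of its cells, and not more foreign than own markers among its 10 leading genes. Pericyte and smooth muscle lists were merged as mural where both scored alike. Macrophage and dendritic lists were joined as mononuclear phagocyte before any scoring. No doublet caller was run. Counts were summed per pool. CPM carry exact Poisson, shares exact Clopper-Pearson and ratios exact conditional binomial 95% intervals (scipy 1.17.1). Only the ratio, its interval and the size rule were tried on simulated counts. Those were Poisson counts, so the trial cannot show whether intervals are wide enough where UMIs cluster in few cells. Other scalings came from edgeR 4.0.16 and DESeq2 1.42.0. All 5 genes are named. Of the wider lists, genes with at least 50 CPM in their highest class, past the size rule or without a row are named, while Agtr1b and Zbtb16 were chosen after their values were seen. 1 result of these lists is not reported here. The genes and lists were chosen with earlier results of these data known.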

Additional observations from a re-analysis of the deposited data

Results flagged for a closer look

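The Enpep log2 ratios of the beads libraries differed in sign between subclasses, though the negative one is close to 0 and its interval spans 0. The ratio, injured over uninjured, was 1.54 (0.88 to 2.27) in endoneurial-like and 0.19 (-0.64 to 0.98) in epineurial-like cells, and -0.078 (-1.95 to 1.92) in perineurial-like cells, which had 7 injured and 5 uninjured UMIs. The difference was not tested.

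In epineurial-like cells the 2 injured libraries stood on opposite sides of the same uninjured cells for 2 genes. The Enpep log2 ratio was 0.19 with the beads library and -1.62 (-2.85 to -0.56) with the FACS library, resting on 21, 9 and 42 UMIs in the beads, FACS and uninjured cells. The Agt log2 ratio was 0.34 with the beads library and -1.57 (-3.14 to -0.26) with the FACS library, resting on 15, 6 and 27 UMIs. These differences were not tested, and strain, isolation and gate differ together between the injured libraries and cannot be told apart.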

How the results depend on the processing

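Of 128 recomputed values, 102 stayed close to the main value and 26 did not. Close meant within the counting interval. For the counts of wider genes past the size rule, which have no interval, it meant a similar count. No value past the size rule changed sign. TMM and DESeq2 scaling shifted every log2 ratio by -0.13 and -0.12, and DESeq2 scaling gave 267 genes higher and 341 lower in place of 324 and 283, and 795 and 814 in place of 991 and 675 at a floor of 10 CPM. With cells thinned to 1000 UMIs the log2 ratios were -0.093 for Agt and -1.27 for Ace, and with the mean of per-cell CPM -1.24 for Ace. With 3 subclasses at the same weight they were 0.48 for Agt, a change of sign, -0.55 for Ace, now under 2-fold, -0.45 for Agtr1a and 3.49 for Agtr2. With the FACS library as injured Agtr1a was at -1.24. Thinning lowered the shares of cells with a UMI in the beads library to 7.47% for Agt and 6.32% for Agtr1a in mural, 14.3% for Ace in endothelial, 4.35% for Enpep in smooth muscle and 7.14% for Agtr2 in mesenchymal cell-like cells. In the FACS library they fell to 9.84% for Ace in endothelial and to 4.87% for Enpep, 2.11% for Agtr1a and 7.47% for Agtr2 in mesenchymal cell-like cells.

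Endothelial Ace of the beads library was 181 CPM at resolution 1.6 and 179 CPM with at least 500 genes per cell. In the FACS library endothelial Agt was 3.65 CPM at resolution 1.6, mesenchymal Agtr2 79.6 CPM there and 83.5 CPM with at least 500 genes, and mesenchymal Enpep 62.5 CPM with at least 500 genes. With each cell given its highest-scoring subclass, Agt in injured epineurial-like cells was 17.5 CPM and Agtr2 in injured differentiating-like cells 122 CPM, both in the beads library. At a floor of 10 CPM, 2 of the wider genes were lower in place of 0. The cause of these shifts was not tested, except that thinning by its construction leaves fewer UMIs. At resolution 0.4 no smooth muscle class was named. The setting without the cell richest in each gene was added after the data were seen. No paired analysis was possible because each group is 1 library with no replicate number.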

Other observations

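Cells with and without an Agtr2 UMI were set side by side among the differentiating-like cells of the injured beads library (102 and 307 cells, median 4600 and 4664 UMIs) and among the differentiating-like and unnamed mesenchymal cells of the injured FACS library (94 and 289 cells, median 6332.5 and 6054 UMIs). The genes below were chosen from these same cells by the log2 ratio of CPM, cells with over cells without an Agtr2 UMI. They are the 10 highest and the 10 lowest by the weaker ratio of both libraries, so the values are a description. The FACS set joins the differentiating-like class with unnamed clusters, some of which had higher Agtr2 levels. Its ratios therefore also compare cells of different clusters, and differences within a cluster were not set apart. Dlk1, an imprinted gene of immature mesenchyme, was at 1836 CPM with and 632 CPM without Agtr2 in the beads library, and at 1890 and 786 CPM in the FACS library. Hp, for haptoglobin, was at 224 and 38.1 CPM in the beads and at 188 and 66.2 CPM in the FACS library. The cytokine Il6 was at 176 and 57.5 CPM, and then 102 and 50.6 CPM. Cfb of the complement system, Chl1, Egfl6, Vtn, Tnfsf8, Iigp1 and Tmeff2 were the others on the high side.

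On the low side Tnc, for the wound matrix protein tenascin C, was at 463 CPM with and 2298 CPM without Agtr2 in the beads library, and at 83.1 and 770 CPM in the FACS library. Spp1, for osteopontin, was at 226 and 1319 CPM, and then 628 and 3263 CPM. Cilp was at 252 and 1464 CPM, and then 403 and 1044 CPM, although across the 13 pools it was the gene nearest to Agtr2. Mmp13, a collagenase gene, was at 3.70 and 80.6 CPM, and then 15.4 and 91.3 CPM. Epha3, C1qtnf3, Slc20a1, Ctsc, Hspa1a and Fibin completed that side. Dlk1, Tnc and Cilp are all on the list that named the differentiating-like cells, and were among the genes picked here for their values.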
